A study of Homo sapiens with 6 samples.

Results

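The genes described here are 36 genes of glycolysis and of the response to low oxygen, chosen by symbol for what their products do, with earlier results of these data known. They stand among 63677 genes obtained by summing transcripts per Ensembl gene ID. Of the 36 genes, 34 had a mean of at least 1 TPM (each transcript's share of its library after allowing for transcript length) and were tested, and PFKFB4 and EGLN3 fell below that level. The values come from total RNA, depleted of ribosomal RNA, of KMS27, an established line of human malignant plasma cells. In 3 libraries the cells overexpressed HA-TAZ, a tagged form of TAZ, the transcriptional coactivator encoded by WWTR1, and 3 libraries are labelled wild type. The HA-TAZ libraries are numbered 1 to 3, and the wild type libraries are lettered as control a to c, because no column name matches a single sample. The promoter that drove HA-TAZ, the number of clones and the culture conditions, oxygen included, are not given in the sources used here. The titles of the wild type samples include the letters HA, and no label says whether those cells carried a construct.

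WWTR1 averaged 297 ± 7.42 TPM (SD, n = 3) in HA-TAZ libraries and 2.20 ± 0.497 TPM (SD, n = 3) in controls. All 9 plasma cell markers listed reached 1 TPM, with a summed level of 2785 to 3217 TPM in HA-TAZ libraries and 4270 to 4825 TPM in controls. The highest of these markers averaged 3124 TPM over the 6 libraries, so this sum mostly follows 1 gene. All marker sums given here are TPM as deposited, not scaled. No listed marker of B cells before the plasma cell stage, T cells or erythroid cells reached 1 TPM (0 of 4, 0 of 4 and 0 of 3), and none was at 0 in every library. The summed levels were 0.346 to 0.912 TPM in HA-TAZ libraries and 0.607 to 0.766 TPM in controls for those B cells, 0.127 to 0.248 against 0.609 to 0.699 TPM for T cells, and 1.11 to 2.20 against 0.798 to 1.45 TPM for erythroid cells. Of 4 monocyte or macrophage markers 2 reached 1 TPM (10.4 to 13.8 TPM summed against 16.9 to 27.3 TPM), as did 2 of 4 of stroma or epithelium (3.37 to 4.18 TPM against 4.03 to 6.14 TPM). The part of these levels in the results below was not tested. In bulk RNA, fewer cells of a type and less RNA per cell cannot be told apart.

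Glycolysis splits glucose into pyruvate in 10 enzymatic steps. A preparatory phase spends ATP to make triose phosphates, and a pay-off phase returns ATP and NADH. Lactate dehydrogenase then turns pyruvate into lactate and restores NAD, and monocarboxylate transporters carry lactate across the membrane. When oxygen is low, prolyl hydroxylases such as EGLN1 and EGLN3 no longer mark the transcription factor subunit HIF1A for degradation. HIF1A then pairs with ARNT and binds short DNA elements at many glycolytic genes and at genes for blood vessel growth, mitophagy and histone demethylation. Malignant plasma cells grow in bone marrow, where oxygen is scarce.

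In HA-TAZ libraries, 10 of the 34 tested genes rose and 1 fell. The genes that rose were GPI, ALDOA, TPI1, GAPDH, PGK1, PGAM1, ENO1, PKM and LDHA, which encode glycolytic enzymes and lactate dehydrogenase A, and the mitophagy receptor gene BNIP3. ANKRD37, an ankyrin repeat gene known as a HIF1A target, was the gene that fell. Over all 22651 genes tested, 4.67% were called higher and 2.63% lower. The test was limma with Benjamini-Hochberg adjustment over all genes and a threshold of 0.05, on log2(scaled TPM + 1), where TPM was divided by a median-of-ratios factor of each library. The median log2 fold change of the 34 genes was 0.23, against -0.03 over all genes tested and 0.06 over protein-coding genes. Without adjustment, 18 of the genes were higher and 3 lower at p under 0.05 by the same test, against 16.6% and 14.1% of all genes. The HA-TAZ and control libraries did not overlap on the scaled TPM of 19 genes that were higher and 4 that were lower, against 20.2% and 18.3% of all genes, and overlapped for 11.

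These counts depend on how the libraries are scaled to each other. On TPM as deposited, GAPDH and PGAM1 were called higher, and SLC16A3, VEGFA, NDRG1, ANKRD37, P4HA1 and KDM3A lower, which is 2 higher and 6 lower against 1.15% and 13.5% of all genes. The median log2 fold change was then -0.06, against -0.27 over all genes, so scaling moved both medians upward. With factors taken from protein-coding genes alone, 7 genes were higher and 1 lower (2.91% and 3.80% of all genes), and the median was 0.16 against -0.09. On the main scale, 27 of the 34 genes lay above the median of all genes tested, -0.03. The median of protein-coding genes was higher, at 0.06, and HK1, PFKFB3, P4HA1, ENO2 and PDK1 lay between these medians.

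The calls rest on all 6 libraries. None of the 10 higher genes stayed called without HA-TAZ 1, without HA-TAZ 2, without HA-TAZ 3 or without control b (0 in each case), and 5 were called without control a and 5 without control c. ANKRD37 was called in 0 of the 6 fits that leave out a library. Calls over all genes also fell in these fits, to between 118 and 470. The directions held in all 6 fits for each of the 11 genes, with a limma adjusted p of at most 0.0662 for GAPDH, 0.0689 for PKM and 0.151 for TPI1.

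**Figure D1:**
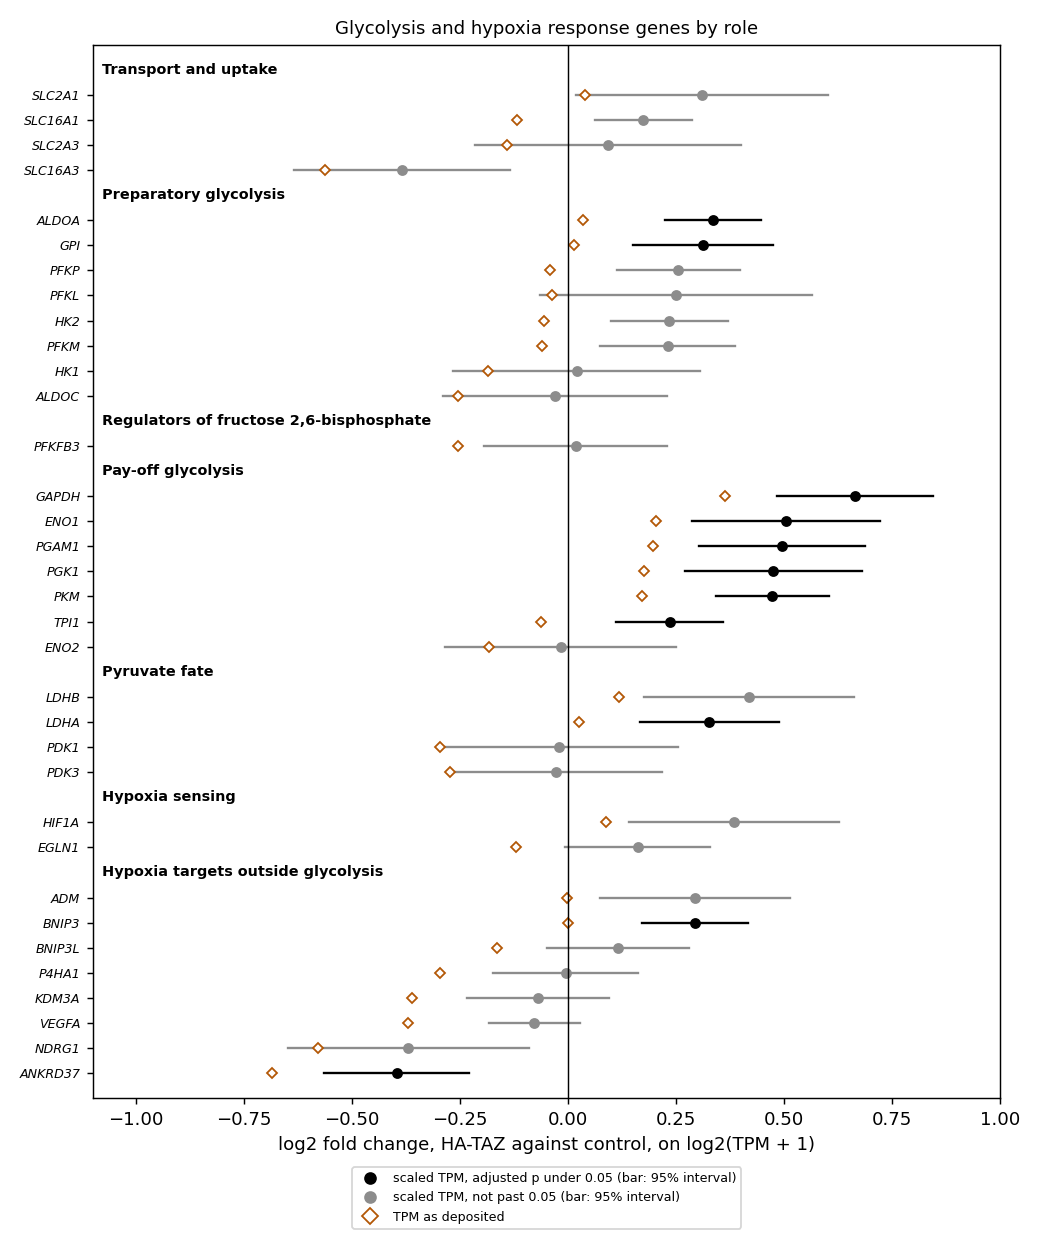
Log2 fold change of each of the 34 tested genes (x axis, HA-TAZ against control on log2(TPM + 1)), grouped by role. Circles with bars are estimates on scaled TPM with their 95% interval, black where the adjusted p was under 0.05, and open diamonds are estimates on TPM as deposited; GAPDH, ENO1, PGAM1, PGK1 and PKM of the pay-off list lie farthest to the right, from 0.47 to 0.66, and ANKRD37 lies farthest to the left at -0.40.

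The pay-off list held 7 genes, of which 6 rose, with a median log2 fold change of 0.47. GAPDH (ENSG00000111640), which oxidises glyceraldehyde 3-phosphate and makes NADH, had the highest level of the 36 genes. Its deposited levels were 913, 949 and 887 TPM in HA-TAZ 1 to 3 and 708, 709 and 720 TPM in control a to c, so every HA-TAZ library lay above every control library before any scaling. On scaled TPM the means were 1017 ± 39.2 and 643 ± 49.1 (SD, n = 3 each), a ratio of 1.58. The log2 fold change was 0.66 (SE 0.07, limma adjusted p = 0.0134). GAPDH shares 230 exonic bases with RP5-940J5.9 on the opposite strand, which was at 102 TPM and had a log2 fold change of 0.46 (limma adjusted p = 0.0562). Whether the authors' quantification used the strand is not given in the sources used here, so reads of these genes may not be told apart.

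ENO1 (ENSG00000074800) encodes enolase, which forms phosphoenolpyruvate. Its deposited levels were 609, 648 and 616 TPM in HA-TAZ 1 to 3 against 517, 551 and 559 TPM in control a to c, again with no overlap. The log2 fold change on scaled TPM was 0.50 (SE 0.09, limma adjusted p = 0.0367). PGAM1 (ENSG00000171314), a phosphoglycerate mutase, was at 146, 149 and 150 TPM against 127, 128 and 133 TPM as deposited. Its scaled change was 0.49 (SE 0.08, limma adjusted p = 0.0309), and the groups were separate on both scales.

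PGK1 (ENSG00000102144) makes the first ATP of the pay-off phase. It is listed under 2 gene IDs with identical values, so each value is the symbol's total divided by 2: 113, 122 and 116 TPM in HA-TAZ 1 to 3 against 98.9, 103 and 107 TPM in control a to c for the ID tested, and 233.5 ± 9.15 against 206.4 ± 8.35 TPM (SD, n = 3) for the sum. The groups did not overlap, and the scaled log2 fold change was 0.47 (SE 0.08, limma adjusted p = 0.0368). PKM (ENSG00000067225) encodes pyruvate kinase, the last step of the pathway. Its deposited levels overlapped, at 586, 630 and 562 TPM against 587, 518 and 476 TPM, since control a reached the level of HA-TAZ 1. After scaling they were 681, 655 and 635 against 488, 478 and 453 without overlap, a log2 fold change of 0.47 (SE 0.05, limma adjusted p = 0.0138).

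TPI1 (ENSG00000111669), which interconverts the triose phosphates and is counted here with the pay-off list, also has 2 gene IDs with equal values. For the ID tested, deposited TPM was 103, 108 and 105 in HA-TAZ 1 to 3 and 118, 104 and 109 in control a to c, so the groups overlapped and the mean was lower in HA-TAZ libraries. On scaled TPM it was 120, 113 and 119 against 98.5, 95.7 and 104, with no overlap and a log2 fold change of 0.24 (SE 0.05, limma adjusted p = 0.0498). On TPM as deposited the change was -0.06, so the direction of TPI1 rests on the scaling. ENO2, the enolase of neurons, was the pay-off gene that did not pass, with a log2 fold change of -0.02 on levels of 1.01 to 1.61 TPM for 1 of its 2 equal gene IDs.

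**Figure D2:**
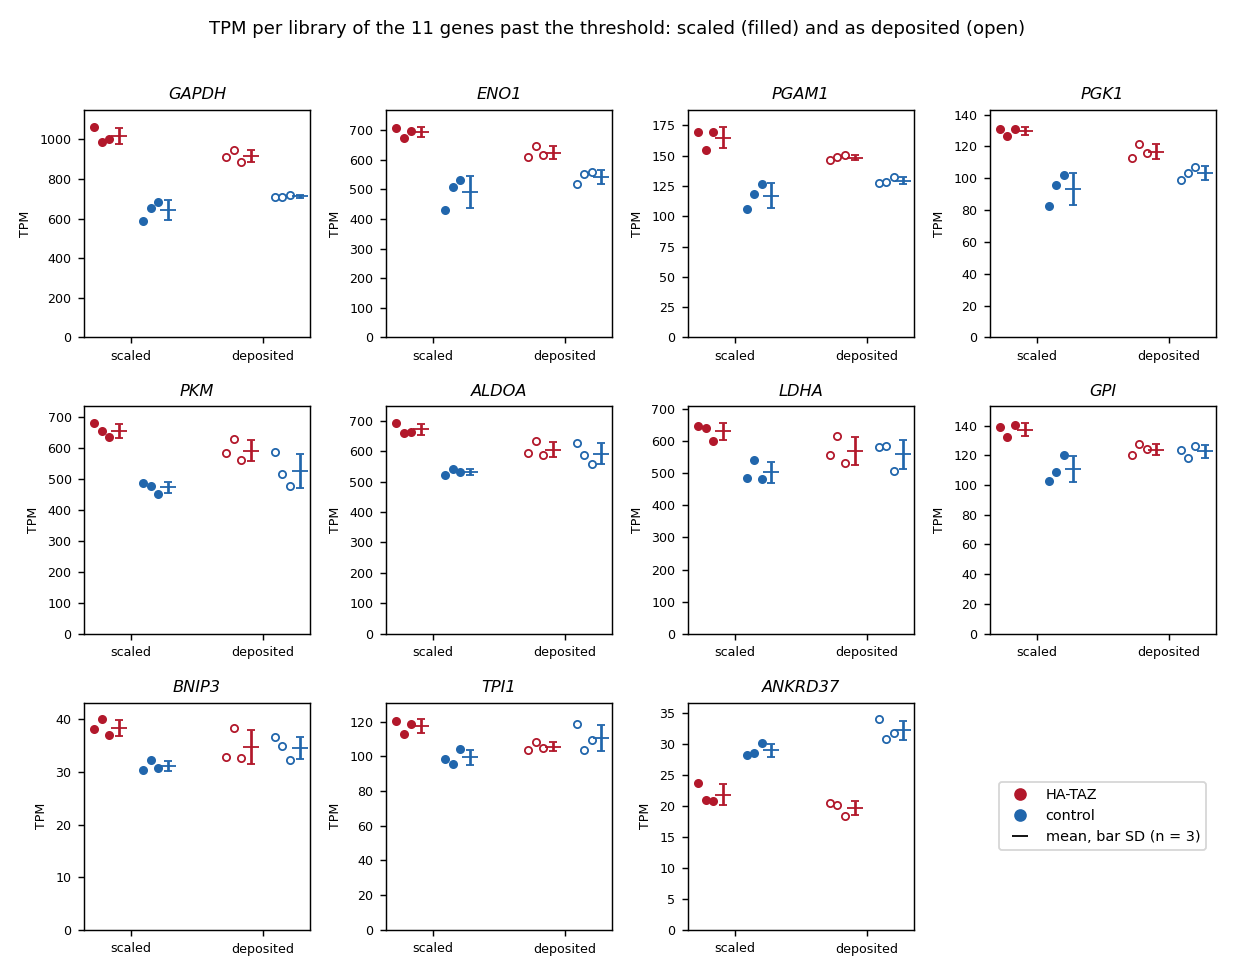
TPM per library (y axis, from 0) of the 11 genes past the threshold, in HA-TAZ (red) and control (blue) libraries, as scaled (filled points) and as deposited (open points); marks beside the points are means with SD (n = 3). On scaled TPM the groups are separate for all 11 genes, and as deposited they are separate for GAPDH, ENO1, PGAM1, PGK1 and ANKRD37.

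Of the 8 preparatory enzyme genes, GPI and ALDOA rose, and the median log2 fold change was 0.24. ALDOA (ENSG00000149925), the aldolase that cleaves fructose 1,6-bisphosphate, had the highest level of this list, at 595, 634 and 587 TPM in HA-TAZ 1 to 3 and 628, 588 and 559 TPM in control a to c as deposited. Those groups overlapped. Scaled levels were 692, 660 and 664 against 523, 543 and 532 without overlap, a log2 fold change of 0.34 (SE 0.05, limma adjusted p = 0.0222). GPI (ENSG00000105220), which converts glucose 6-phosphate to fructose 6-phosphate, was at 120, 127 and 124 TPM against 124, 118 and 126 TPM as deposited, also with overlap. After scaling it was at 139, 132 and 140 against 103, 109 and 120, and its log2 fold change was 0.31 (SE 0.07, limma adjusted p = 0.0493). With factors from protein-coding genes, ALDOA kept its call and GPI did not (limma adjusted p = 0.0773).

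The kinases that commit glucose to the pathway did not pass the threshold, although HK2 and PFKP did when only genes averaging at least 5 TPM were tested (limma adjusted p = 0.040 and 0.0387). HK2, the hexokinase of many tumour lines, had a log2 fold change of 0.23 (limma adjusted p = 0.0589). The phosphofructokinase genes PFKP, PFKL and PFKM, whose products set the pace of glycolysis, had 0.25, 0.25 and 0.23 (limma adjusted p = 0.0562, 0.244 and 0.0791). HK1, the hexokinase of most tissues, had 0.02 and ALDOC, the aldolase of brain, had -0.03. PFKFB3 makes fructose 2,6-bisphosphate, the activator of phosphofructokinase. As deposited, PFKFB3 had 7.44, 9.92 and 9.31 TPM in HA-TAZ 1 to 3 and 11.6, 10.3 and 10.3 TPM in control a to c, and its scaled log2 fold change was 0.02 with overlapping groups. Its relative PFKFB4, below the test's minimum, was at 0.487, 0.324 and 0.410 TPM against 0.375, 0.256 and 0.840 TPM, also overlapping.

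Summed over the 15 genes for enzymes of the 10 steps, 8 rose and none fell. Together they held 0.355%, 0.375% and 0.351% of all TPM in HA-TAZ 1 to 3 and 0.328%, 0.319% and 0.316% in control a to c. The groups did not overlap. Relative to the TPM of genes typed as protein-coding, the sum was 0.813% ± 0.0198 in HA-TAZ libraries and 0.639% ± 0.0358 in controls (SD, n = 3), also without overlap. The sum counts both IDs of TPI1, PGK1 and ENO2, but that total leaves out their second IDs, so this is not an exact share. In the 21 other genes, 2 rose and 1 fell among the 19 tested, with a median log2 fold change of 0.09 beside 0.25 for the enzymes. The ratio of GAPDH to TPI1 within a library, a pair chosen after the values were seen, was 4.41, 4.38 and 4.22 in HA-TAZ 1 to 3 and 2.99, 3.42 and 3.29 in control a to c, without overlap. Both IDs of TPI1 are summed here. Without transcripts typed as retained intron, processed transcript, nonsense-mediated decay or non-stop decay, which held a larger portion of TPI1 in controls, the ratio was 5.35, 5.51 and 5.02 against 5.13, 4.79 and 4.37, with overlap. A ratio within a library does not depend on the scaling between libraries.

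Among the 4 genes of pyruvate fate, LDHA rose. LDHA (ENSG00000134333), the lactate dehydrogenase subunit that favours lactate formation, was at 557, 617 and 532 TPM in HA-TAZ 1 to 3 and 584, 587 and 507 TPM in control a to c as deposited, which overlap. Scaled levels of 648, 642 and 601 lay above 486, 541 and 483, and the log2 fold change was 0.33 (SE 0.07, limma adjusted p = 0.0452). LDHB, the other subunit, had a larger fold change of 0.42 that did not pass (SE 0.10, limma adjusted p = 0.059). The share of LDHA in the sum of both was 58.2% ± 1.14 and 59.8% ± 2.34 (SD, n = 3) and overlapped. PDK1 and PDK3, kinases that switch off pyruvate dehydrogenase, had log2 fold changes of -0.02 and -0.03.

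None of the 4 transporter genes passed the threshold. SLC16A1 (ENSG00000155380), a monocarboxylate transporter that carries lactate in either direction, led this list at 31.1, 34.8 and 30.9 TPM in HA-TAZ 1 to 3 and 36.9, 35.5 and 32.9 TPM in control a to c as deposited, with overlap. Its scaled log2 fold change was 0.17 (limma adjusted p = 0.0722). SLC16A3 (ENSG00000141526), the transporter that exports lactate from glycolytic cells and a known HIF1A target, was at 1.07, 0.948 and 1.07 TPM against 2.23, 1.95 and 1.83 TPM. The groups did not overlap on either scale, and the scaled log2 fold change was -0.38 (SE 0.10, limma adjusted p = 0.0731). As deposited it passed, at -0.56 (limma adjusted p = 0.0367). SLC16A3 shares 336 exonic bases with CSNK1D on the opposite strand, a gene at 45.6 TPM with a log2 fold change of 0.25 (limma adjusted p = 0.0663). The glucose transporter genes SLC2A1 and SLC2A3 had 0.31 and 0.09 (limma adjusted p = 0.145 and 0.651).

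The balance between related genes was compared within each library for 11 families, and 4 of them had shares that did not overlap between the groups. On scaled TPM 20.2% of all genes were separate and higher and 18.3% separate and lower. Those are values of single genes, and no such background was computed for shares within a library. The count of 4 in 11 is therefore not read as a result about these families. SLC16A3 made up 3.32%, 2.65% and 3.34% of the SLC16A1 and SLC16A3 sum in HA-TAZ 1 to 3 and 5.69%, 5.21% and 5.26% in control a to c, all lower in HA-TAZ libraries. ALDOC made up 0.430%, 0.497% and 0.378% of the aldolase sum against 0.591%, 0.533% and 0.563%, so its share too was lower in every HA-TAZ library. For ENO2, counted by its tested gene ID alone, the share of the enolase sum was 0.183%, 0.157% and 0.163% against 0.311%, 0.219% and 0.210%. Control a stands highest there. With both of its equal gene IDs summed, the mean ENO2 share was 0.335% in HA-TAZ libraries and 0.492% in controls, again without overlap. BNIP3 made up 73.5%, 74.6% and 74.6% of the sum with its relative BNIP3L against 70.2%, 72.6% and 72.6%, and all HA-TAZ libraries were higher. For each of the 4, p was 0.1 in an exact two-sided permutation test, the smallest value 3 against 3 libraries allow, so no family could pass 0.05. Shares of the hexokinases, phosphofructokinases, PFKFB enzymes, glucose transporters, lactate dehydrogenases, pyruvate dehydrogenase kinases and prolyl hydroxylases overlapped.

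**Figure D3:**
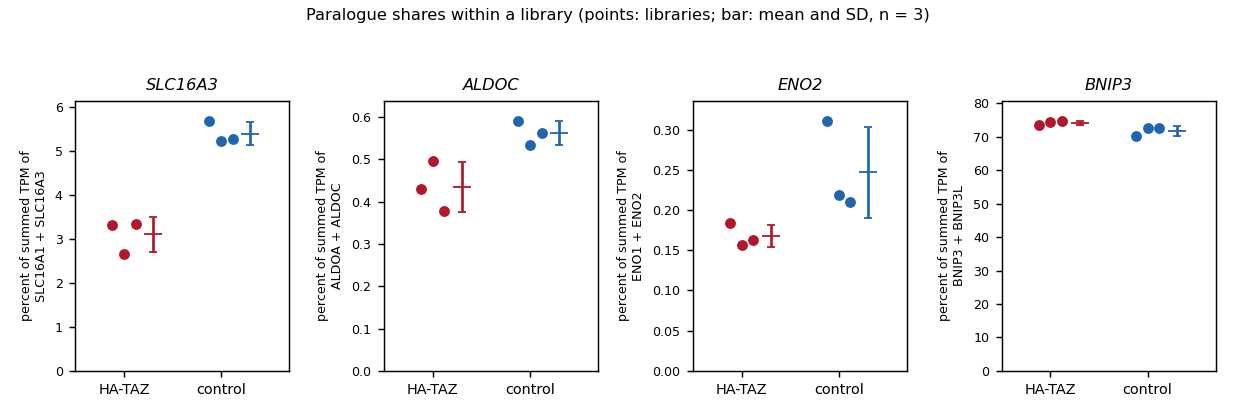
Share of SLC16A3, ALDOC, ENO2 and BNIP3 (y axis, percent of the summed TPM of the 2 genes named on each axis, from 0) in HA-TAZ (red) and control (blue) libraries; points are libraries and marks beside them are means with SD (n = 3). ENO2 is drawn from its tested gene ID alone, not from the sum of its 2 equal gene IDs. The SLC16A3 share lies between 2.65% and 3.34% in HA-TAZ libraries and between 5.21% and 5.69% in controls.

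The oxygen sensing genes did not pass the threshold. HIF1A (ENSG00000100644) was at 54.0, 71.7 and 56.3 TPM in HA-TAZ 1 to 3 and at 68.3, 53.7 and 49.5 TPM in control a to c as deposited, and these overlap. Scaled levels of 62.8, 74.6 and 63.7 lay above 56.9, 49.6 and 47.1, and the log2 fold change was 0.38 (SE 0.10, limma adjusted p = 0.0691). These are RNA levels, while oxygen acts on the HIF1A protein. HIF1A-AS2, an antisense gene at the same locus, rose from 5.17 ± 0.289 to 9.80 ± 2.39 TPM (SD, n = 3), a scaled log2 fold change of 1.04 (limma adjusted p = 0.0308). EGLN1 had 0.16 (limma adjusted p = 0.175). EGLN3 was at 0.140, 0.114 and 0.256 TPM in HA-TAZ 1 to 3 and at 0.0660, 0.0321 and 0.120 TPM in control a to c, below the test's minimum and with overlap.

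The 8 hypoxia targets outside glycolysis did not move together: 1 rose, 1 fell, and the median log2 fold change was -0.04. BNIP3 (ENSG00000176171), which marks mitochondria for removal, was at 32.9, 38.4 and 32.7 TPM in HA-TAZ 1 to 3 and 36.5, 34.9 and 32.3 TPM in control a to c as deposited, with overlap. After scaling it was at 38.2, 39.95 and 37.0 against 30.4, 32.2 and 30.8, a log2 fold change of 0.29 (SE 0.05, limma adjusted p = 0.0347). ADM, which encodes the vasodilator adrenomedullin, had the highest level of these genes. Its deposited levels were 61.3, 63.9 and 63.0 TPM against 59.6, 66.5 and 62.6 TPM, and its scaled log2 fold change was 0.29 (limma adjusted p = 0.0937).

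ANKRD37 (ENSG00000186352) was at 20.5, 20.2 and 18.4 TPM in HA-TAZ 1 to 3 and at 34.0, 30.9 and 31.8 TPM in control a to c, with every HA-TAZ library below every control on both scales. Its scaled log2 fold change was -0.40 (SE 0.07, limma adjusted p = 0.0353), a ratio of 0.752. The level of ANKRD37 lay mostly in transcripts that code for no full protein: transcripts typed as retained intron, processed transcript or subject to nonsense-mediated decay held 71.9% ± 4.38 of it in HA-TAZ libraries and 79.7% ± 3.35 in controls (SD, n = 3), with overlap. Without such transcripts the scaled log2 fold change was 0.05 (limma adjusted p = 0.837), and the coding transcripts as deposited were at 5.50 ± 0.638 TPM in HA-TAZ libraries and 6.53 ± 0.986 TPM in controls (SD, n = 3). ANKRD37 also shares 909 exonic bases with UFSP2 on the opposite strand, and UFSP2, at 62.8 ± 3.84 TPM in controls and 38.5 ± 3.44 TPM in HA-TAZ libraries (SD, n = 3), fell by the same log2 value of -0.40 (limma adjusted p = 0.0264). The part of UFSP2 reads in the ANKRD37 values was not tested.

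Of the other targets, the angiogenic factor gene VEGFA had a scaled log2 fold change of -0.08, the collagen prolyl hydroxylase gene P4HA1 -0.01, the histone demethylase gene KDM3A -0.07 and the mitophagy receptor gene BNIP3L 0.11, none past the threshold (limma adjusted p = 0.265, 0.959, 0.512 and 0.295). NDRG1, a stress response gene, had -0.37 (limma adjusted p = 0.0953) at levels of 1.40 to 3.51 TPM. Without its non-coding transcripts, the NDRG1 value was 0.17 (limma adjusted p = 0.507). The sum of the 8 targets was 0.0203% of all TPM in HA-TAZ libraries and 0.0239% in controls without overlap, and 0.0457% and 0.0475% of protein-coding TPM with overlap. The ratio of PGK1 to ANKRD37 within a library, chosen after the values were seen, was 11.01, 12.1 and 12.6 in HA-TAZ 1 to 3 and 5.81, 6.69 and 6.74 in control a to c, and the groups did not overlap. Both IDs of PGK1 are summed in this ratio. Without non-coding transcripts it was 32.8, 27.6 and 27.5 against 21.5, 23.2 and 18.1, also without overlap.

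The libraries hold total RNA, so a gene's value also includes transcripts of non-coding types. Over all protein-coding genes, transcripts typed by GENCODE release 29 as retained intron, processed transcript, nonsense-mediated decay or non-stop decay held 19.3% ± 0.379 of the TPM in HA-TAZ libraries and 21.6% ± 0.317 in controls (SD, n = 3), with no overlap. Over the 36 genes it was 16.5%, 17.5% and 16.1% in HA-TAZ 1 to 3 and 21.6%, 20.5% and 18.8% in control a to c. The portion was lower in all HA-TAZ libraries than in all controls for 8 of the 34 tested genes, among them TPI1, GPI, PGK1, ENO1 and PKM, and higher for 0. That 23.5% is near the background, since 20.8% of 11664 protein-coding genes tested were separate and lower and 2.69% separate and higher. In TPI1 it was 18.9%, 21.8% and 17.3% against 42.5%, 29.6% and 26.4%, most of it in 1 retained intron transcript, ENST00000474253.1. For GPI it was 10.8%, 12.2% and 12.01% against 18.5%, 17.9% and 18.9%.

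Counting without such transcripts, 9 of 32 tested genes rose and none fell, against 7.13% and 2.69% of all genes, and the median log2 fold change was 0.24 against 0.02. GAPDH, ENO1, PGAM1, PGK1, PKM, ALDOA, GPI, LDHA and BNIP3 were the 9. TPI1 had a larger log2 fold change of 0.50 by this count but a limma adjusted p of 0.0537. GPI went from 0.31 to 0.43 and ALDOA from 0.34 to 0.50, while GAPDH stayed at 0.66. The library factors of the main fit were kept for this count and not recomputed. The median log2 fold change over all genes tested was -0.03 in the main fit and 0.02 by this count. This count was chosen after the data were seen.

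**Figure D4:**
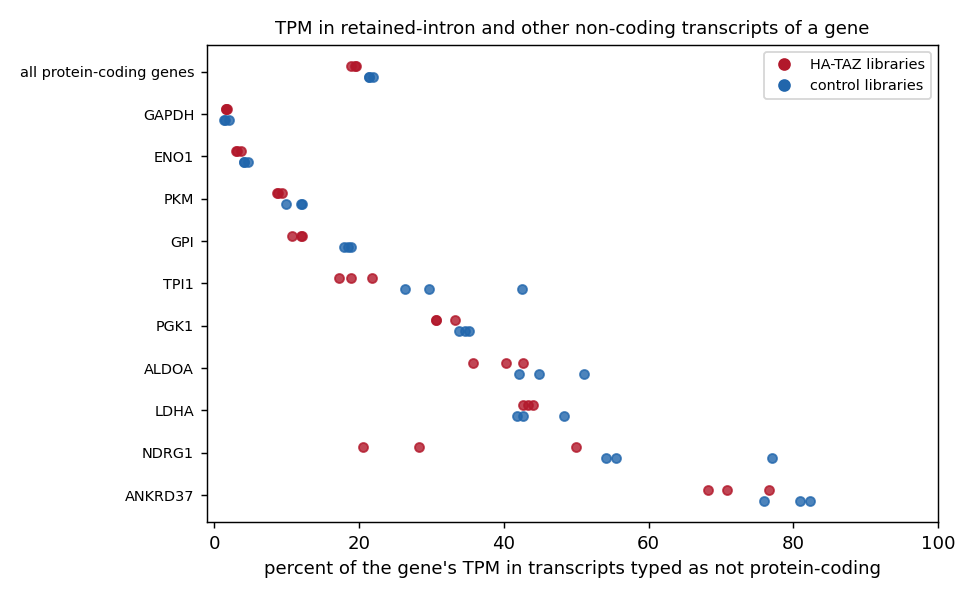
Percent of a gene's TPM that lies in transcripts typed as retained intron, processed transcript, nonsense-mediated decay or non-stop decay (x axis) for all protein-coding genes together and for 10 of the 36 genes, with a point for each HA-TAZ (red) and control (blue) library. The groups are separate for all protein-coding genes (19.3% and 21.6% on average) and for ENO1, PKM, GPI, TPI1, PGK1 and NDRG1, and GAPDH lies below the other genes drawn.

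At the level of single transcripts, 191 of the 459 transcripts of these genes could be tested, and 2 passed: PKM ENST00000335181.5 rose (log2 fold change 0.51, limma adjusted p = 0.0465) and ANKRD37 ENST00000511311.1, a retained intron transcript, fell (-0.68, limma adjusted p = 0.0429). The background was 0.432% higher and 0.103% lower over 57448 transcripts. ENST00000335181.5 was at 501, 538 and 476 TPM in HA-TAZ 1 to 3 and 486, 430 and 401 TPM in control a to c as deposited, with overlap, and carried 85.3% ± 0.495 and 83.3% ± 0.739 (SD, n = 3) of PKM. Neither call was made on TPM as deposited or without HA-TAZ 1, HA-TAZ 2, HA-TAZ 3, control a or control b, and 1 was made without control c. The authors' deposited table, a Wald test by sleuth on natural log values, gives a q for 281 transcripts of these genes. Of the 281, 46 have q under 0.05, of which 42 are positive and 4 negative, from 21 of the 36 genes. Over all 109487 transcripts with a q in the authors' deposited table, 4.08% are positive and 1.60% negative at that q. The smallest q of these genes in the authors' deposited table is 2.07e-17, for PKM ENST00000335181.5, with an effect of 0.369 (SE 0.0398) on the natural log scale. The authors' deposited table also has the main transcripts of LDHA (ENST00000379412.5, 0.383, q = 1.2e-10), PGAM1 (ENST00000334828.5, 0.364, q = 4.72e-09) and ENO1 (ENST00000234590.4, 0.379, q = 4.6e-08) as positive. The transcripts with the highest TPM of GAPDH (ENST00000396859.1, 0.242, q = 0.185) and ALDOA (ENST00000566130.1, a retained intron transcript, 0.0204, q = 0.954) are not past that q in the authors' deposited table. Other transcripts of both genes are positive there, such as GAPDH ENST00000229239.5 (0.765, q = 9.73e-07) and ALDOA ENST00000563060.2 (0.355, q = 8.5e-09). Of the 36 leading transcripts, each the one with the highest TPM of its gene, the authors' deposited table has 13 as positive and 2 as negative at that q. The share over leading transcripts of all genes was not computed. The 4 negative transcripts in the authors' deposited table belong to ANKRD37, GPI, PDK1 and PFKL. For ANKRD37 and PDK1 they are the leading transcripts. The leading transcripts of GPI (0.266, q = 0.0339) and PFKL (0.312, q = 0.00174) are positive in the authors' deposited table. The negative PFKL transcript, ENST00000403390.1, averaged 0.308 TPM.

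Promoter sequences are shown for the genes that changed and hold the core ACGTG that HIF binds. A larger number of genes that did not pass the threshold in the main fit also hold this core. They are ALDOC, EGLN1, ENO2, HK2, P4HA1, PDK1, PDK3, PFKFB3, PFKM, PFKP and SLC16A3. HIF1A is known to bind short elements of this kind at many glycolytic genes. A RefSeq table of promoters on GRCh38.p14 (250 bases before to 50 after a start) held 59 promoters for 31 of the 36 genes. SLC2A3, SLC16A1, VEGFA, BNIP3L and NDRG1 were not matched. ACGTG on either strand was in 39.0% of the 59 promoters and in 21.4% of all 35116, GCGTG in 42.4% and 36.5%, and either of them in 67.8% and 48.4%. CACGTG, which contains ACGTG on both strands and is also the site of other factors, was in 13.6% and 7.26%. GGAATG, the core motif of the TEAD factors that TAZ binds, was in 10.2% and 14.03%. The median GC content was 69.0% in the 59 promoters and 58.7% in all, and promoters of 1 gene can overlap, so these shares are a description. In each window below, capitals mark ACGTG or GCGTG on either strand, the window surrounds the ACGTG nearest the start, and the gene's own strand is written 5′ to 3′.
GAPDH (chr12:6535160-6535212, plus strand): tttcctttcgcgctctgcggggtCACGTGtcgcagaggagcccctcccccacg
PGK1 (chrX:78104041-78104093, plus strand): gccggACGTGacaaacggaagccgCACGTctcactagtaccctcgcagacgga
TPI1 (chr12:6868064-6868104, plus strand): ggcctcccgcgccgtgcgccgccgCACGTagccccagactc
ALDOA (chr16:30064362-30064414, plus strand): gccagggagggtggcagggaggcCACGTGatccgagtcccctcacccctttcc
GPI (chr19:34364806-34364858, plus strand): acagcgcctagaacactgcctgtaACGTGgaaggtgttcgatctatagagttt
LDHA (chr11:18394466-18394518, plus strand): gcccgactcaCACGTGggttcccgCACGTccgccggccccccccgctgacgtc
BNIP3 (chr10:131982028-131982080, minus strand): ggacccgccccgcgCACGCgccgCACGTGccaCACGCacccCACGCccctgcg
ANKRD37 (chr4:185396674-185396726, plus strand): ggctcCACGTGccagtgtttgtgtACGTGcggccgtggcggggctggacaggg
The nearest ACGTG begins 80 bases before the start in GAPDH and 17 in TPI1. In LDHA it begins 73 bases before the start and in BNIP3 133. ANKRD37, which fell, holds ACGTG at 2 places before its start and BNIP3, which rose, at 1, with a CACGTG counted as 1 place. Among the other changed genes, ENO1 and PKM held GCGTG and no ACGTG, and PGAM1 held neither in the 300 bases.

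Of 113 other genes from lists of neighbouring pathways, 86 were tested, and 10 rose and 0 fell, against the background of 4.67% and 2.63%. On TPM as deposited 3 rose and 8 fell, against 1.15% and 13.5% of all genes, so the split of these lists also depends on the scaling. The list of other glycolysis and related genes had 4 of 12 tested that rose, none of them for an enzyme of the 10 steps. In this list 0 were called higher and 1 lower on TPM as deposited. With factors from protein-coding genes it was 1 and 0, against 2.91% and 3.80% of all genes. PGAM5, a mitochondrial phosphatase, had 0.51 and the glucose transporter gene SLC2A8 0.40, BSG, the chaperone of lactate transporters, 0.32 and MINPP1, an inositol polyphosphate phosphatase that can also act on bisphosphoglycerate, 0.32 (limma adjusted p = 0.0207, 0.048, 0.0469 and 0.0421). In the list of pyruvate entry into mitochondria, MPC1, a subunit of the mitochondrial pyruvate carrier, rose (0.47, limma adjusted p = 0.0363), 1 of 12. Of the pentose phosphate list 1 of 10 rose, PRPS2, which makes phosphoribosyl pyrophosphate (0.29, limma adjusted p = 0.0346). None of 10 glycogen and hexose genes passed the threshold by limma. At an unadjusted p under 0.05 by limma 4 were higher and 0 lower, against 16.6% and 14.1% of all genes.

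Among the tested genes of these lists and the 36 genes, the largest fold changes were in hypoxia targets outside the 36. Of 29 tested, 4 rose, against 4.67% of all genes: BHLHE40, P4HA2, HMOX1 and FAM162A. The median log2 fold change of the 29 was 0.07. At an unadjusted p under 0.05 by limma 10 were higher and 2 lower, against 16.6% and 14.1% of all genes. On TPM as deposited 3 of the 29 were called higher and 4 lower, against 1.15% and 13.5% of all genes. With factors from protein-coding genes it was 4 and 1, against 2.91% and 3.80%. BHLHE40, a circadian and hypoxia-responsive repressor gene, was at 9.75, 10.8 and 8.80 TPM in HA-TAZ 1 to 3 and 3.22, 3.38 and 3.57 TPM in control a to c as deposited, and its scaled log2 fold change was 1.55 (SE 0.10, limma adjusted p = 0.00327). P4HA2, a collagen prolyl hydroxylase like P4HA1, was at 10.3, 11.1 and 11.02 TPM against 5.49, 5.26 and 5.20 TPM (1.17, SE 0.07, limma adjusted p = 0.00243). HMOX1, the inducible heme oxygenase, was at 4.15, 4.75 and 5.50 TPM against 2.41, 2.25 and 2.46 TPM (1.01, SE 0.12, limma adjusted p = 0.0146). These 3 genes were separate between the groups before scaling and passed on TPM as deposited as well. FAM162A, a mitochondrial hypoxia-inducible gene, had 0.41 (limma adjusted p = 0.0219) with overlap as deposited. BHLHE40 and P4HA2 stayed past the threshold in all 6 fits that leave out a library, with a limma adjusted p of at most 0.0321 and 0.0285. HMOX1 and PGAM5 did so in 2 of 6, FAM162A in 1, and SLC2A8, BSG, MINPP1, MPC1 and PRPS2 in 0.

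Of 13 tested regulators of HIF, 0 passed by limma. At an unadjusted p under 0.05 by limma 5 were higher and 1 lower, against 16.6% and 14.1% of all genes. ARNT, the partner of HIF1A, was at 30.2, 33.3 and 29.4 TPM in HA-TAZ 1 to 3 and 45.6, 41.8 and 38.7 TPM in control a to c as deposited, without overlap. Its scaled log2 fold change was -0.13 (limma adjusted p = 0.111), and it passed on TPM as deposited (-0.43, limma adjusted p = 0.0363) and with factors from protein-coding genes (-0.21, limma adjusted p = 0.0428). VHL, which targets hydroxylated HIF1A for degradation, had -0.05 (limma adjusted p = 0.709). EPAS1, the alternative oxygen-sensitive subunit, was below the minimum at 0.164 ± 0.0749 and 0.199 ± 0.0559 TPM (SD, n = 3).

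**Figure D5:**
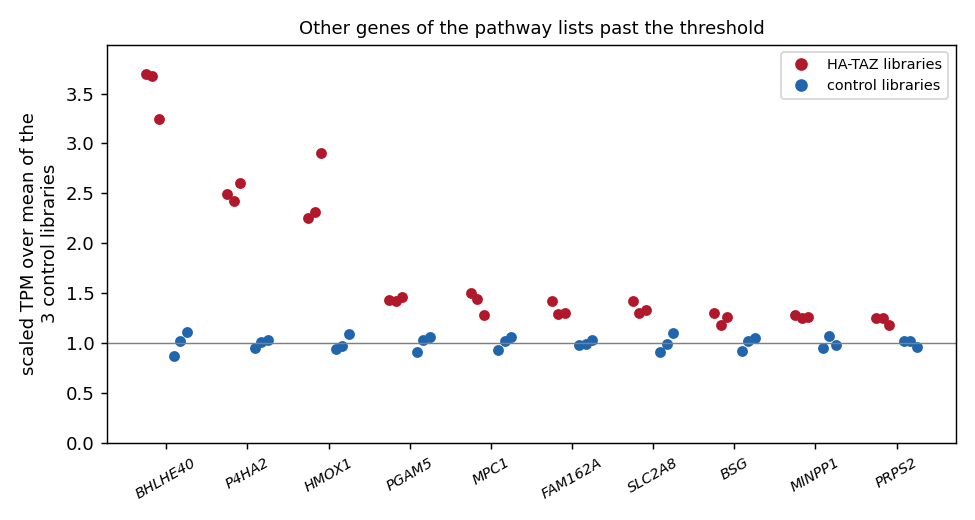
Scaled TPM of each library divided by the mean of the 3 control libraries (y axis, from 0) for the 10 genes of the neighbouring lists that passed the threshold, in HA-TAZ (red) and control (blue) libraries. BHLHE40 lies between 3.24 and 3.69 in HA-TAZ libraries, P4HA2 between 2.42 and 2.60, HMOX1 between 2.26 and 2.91, and the other 7 genes between 1.18 and 1.51.

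Many of the 36 genes have processed pseudogenes whose sequence is close to the parent's. The table holds 109 genes named as such copies, of which 7 were tested and 0 were called by limma at an adjusted p under 0.05, and the highest was BNIP3P1 at 3.67 TPM, beside a level of 34.6 TPM for BNIP3. How the authors' quantification divided reads between a gene and such copies cannot be read from TPM.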

How the data were processed

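Total RNA of KMS27 cells was measured in 6 libraries, 3 with HA-TAZ and 3 labelled wild type. The authors deposited TPM for 215170 transcripts per library. TPM sums to 1000000 in each library and keeps no depth, so precision was judged from the spread between libraries. The authors' deposited table of their own comparison holds p-values and q-values, effects on a natural log scale and their standard errors, per the file headers. Per the submitters' processing notes, kallisto 0.46.0, sleuth 0.30.0 and GRCh37 were used, with no role or order given. The annotation release and the use of strand are not given in the sources used here. The control columns carry a name that is in no label and were taken as wild type by elimination. No label says that the libraries of a group came from separate cultures, so p-values measure only the spread between these libraries.

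Transcripts were summed per gene ID with the pairing in the authors' deposited table. The test, on genes averaging 1 TPM or more, used limma 3.58.1 in R 4.3.3, with an intensity trend, on log2(TPM divided by the library's factor, plus 1), two-sided, with Benjamini-Hochberg adjustment over 22651 genes. The pseudocount of 1 understates the change of low genes. The median-of-ratios factors over 21512 genes were 0.860, 0.961 and 0.884 for HA-TAZ 1 to 3 and 1.20, 1.08 and 1.05 for control a to c. The procedure was tested on simulated data of this comparison with 21512 genes, where it recovered 44% of genes with a log2 change of 1 and 81% with a log2 change of 2. GENCODE release 29 gave transcript types and overlapping exons, and RefSeq on GRCh38.p14 gave promoters. Tables were handled with pandas 2.3.3 and numpy 2.4.6 in Python 3.11.15, and plots were drawn with matplotlib 3.10.9.

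The 36 genes and all lists were chosen with earlier results of these data known. Values per library are given for members called, for the member with the highest mean TPM of each role, for members under the minimum, and for families whose shares did not overlap. From other lists, called genes (at most 4 per list) and HIF1A, EPAS1, ARNT and VHL are named. Single ratios and overlapping genes were chosen after their values were seen.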

Additional observations from a re-analysis of the deposited data

How the results depend on the processing

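No paired analysis was possible because the control columns carry a name that is in no label, so their numbers cannot be tied to samples. The members called higher were 2 on TPM as deposited, 3 with no filter on low values, 3 with limma without a trend, 14 with a minimum mean TPM of 5 (HK2, PFKP, LDHB and HIF1A added), and 0 to 5 when 1 library was left out. Those called lower were 6 on TPM as deposited, 0 with no filter, 0 without a trend, 0 without non-coding transcripts (an alternative chosen after seeing the data) and 0 to 0 with 1 library left out. Their median log2 fold change was -0.062 on TPM as deposited, 0.16 with factors from protein-coding genes, 0.20 with no filter, 0.25 with a minimum mean TPM of 5, and 0.17 to 0.24 with 1 library left out. Over all genes, calls in either direction numbered 3329 on TPM as deposited, 691 with no filter and 756 without a trend. With a minimum mean TPM of 5 there were 2240, and with 1 library left out 118 to 470. The main fit called 1057 genes higher and 595 lower, so calls over all genes changed with the setting as well. Other pathway genes called higher were 3 on TPM as deposited, 5 with no filter, 6 without a trend and 2 to 5 with 1 library left out. Those called lower were 8 on TPM as deposited, 2 with factors from protein-coding genes and 1 with a minimum mean TPM of 5. Member transcripts called were 0 on TPM as deposited, 21 with a minimum mean TPM of 5, where fewer transcripts are adjusted for, and 0 to 1 with 1 library left out.

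On TPM as deposited the log2 fold change of 12 members turned sign: SLC2A3 -0.14, SLC16A1 -0.12, HK1 -0.18, HK2 -0.056, PFKL -0.038, PFKM -0.060, PFKP -0.042, PFKFB3 -0.26, TPI1 -0.063, EGLN1 -0.12, BNIP3L -0.16 and ADM -0.0027. With factors from protein-coding genes HK1 was at -0.032 and PFKFB3 at -0.051. Without non-coding transcripts ALDOC was at 0.098, PDK1 at 0.012, PDK3 at 0.044, NDRG1 at 0.17, ANKRD37 at 0.048 and KDM3A at 0.0025. With 1 library left out, 7 members near 0 turned sign in at least 1 fit, with ranges of -0.077 to 0.077 for HK1, -0.092 to 0.052 for ALDOC, -0.025 to 0.10 for PFKFB3, -0.059 to 0.029 for ENO2, -0.11 to 0.051 for PDK1, -0.11 to 0.039 for PDK3 and -0.063 to 0.031 for P4HA1. The cause was not tested. A pseudocount of 0.1 or a sum over all gene IDs of a symbol turned no member's sign, with 8 and 10 members higher and 1 and 1 lower.

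With 3 libraries a group and unknown depth, the simulated data recovered 44% of genes with a log2 change of 1, and smaller changes, such as those of most of these genes, were not simulated.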
